A study of Mus musculus with 46 samples.

Results

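The genes described here are the members of the Sox and Klf transcription factor families other than the reprogramming factors Sox2 and Klf4 and their close substitutes Klf2 and Klf5. They were chosen by name, as protein-coding genes whose symbol is Sox or Klf followed by a number, in GENCODE vM1 on the mouse genome build mm9. This gave 31 of 22238 protein-coding genes, 17 Sox genes and 14 Klf genes; Sox1 and Klf18 were not analysed here. A gene counted as carrying a mark when at least 1 peak of that mark overlapped the gene extended by 1 kb to either side. The members had a median length of 8.90 kb, from 1.41 kb (Sox15) to 953.6 kb (Sox5), while the median over all protein-coding genes was 15.5 kb.

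ChIP-Seq peak lists were analysed for the histone variant H3.3 (16 libraries) and for H3 trimethylated at lysine 4 (H3K4me3, 7 libraries) or lysine 36 (H3K36me3, 7 libraries). D0 were mouse embryonic fibroblasts whose Oct4 locus carried a GFP reporter, taken before conversion, and all reprogramming groups apart from ESD3 derived from such fibroblasts. The other reprogramming groups received retroviral Oct4, Sox2, Klf4 and c-Myc. D3 cells were unsorted on day 3. On days 6 and 9 cells negative (D6T-, D9T-) or positive (D6T+, D9T+) for the fibroblast surface protein Thy-1 were sorted, and on days 12 and 16 cells positive (D12S+, D16S+) or negative (D12S-, D16S-) for SSEA-1, a surface antigen of pluripotent cells. D6T-, D9T-, D12S+ and D16S+ followed the successful route to induced pluripotent stem cells (iPSCs), the opposite fractions the unsuccessful route, and ESD3 is a mouse embryonic stem cell line. H3K4me3 and H3K36me3 were profiled in D0, D3, the successful fractions and iPSCs. In the transdifferentiation system, MEF were fibroblasts before induction, D4 cells had carried Scl, Lmo2, Bmi1 and Runx1 (SLBR) for 4 days, and cKit+ and cKit- were sorted at the end for the progenitor receptor cKit. Those fibroblasts had been depleted of hematopoietic cells and were grown on OP9 stromal cells, and the labels do not tell stromal chromatin apart from that of the converted cells. Every group was a single library, so no value below has a replicate check and no test between groups was made.

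Sox proteins bind DNA through a high-mobility-group box that bends the double helix at an ACAAT-like motif, and they usually act together with a partner factor. Klf proteins bind CACCC and GC-rich motifs through zinc fingers at their C terminus, and differ in the activators or corepressors that their N terminus recruits. Among their best known roles, Sox9 directs cartilage and SoxE genes the neural crest, Sox17 and Sox18 the endoderm and vessels, Sox5, Sox6 and Sox13 lack an activation domain of their own, Klf1 drives red cell genes and Klf9 responds to glucocorticoids. H3.3 is put into chromatin outside replication, mainly at active promoters, gene bodies and enhancers, H3K4me3 marks promoters and H3K36me3 the bodies of transcribed genes.

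The promoters of 5 members are shown because the marks fell on them in different ways. That of Sox13 carried H3K4me3 throughout with H3.3 inside the gene, and that of Klf9 carried H3K4me3 throughout and H3.3 in some libraries. That of Klf15 had H3.3 in few libraries, and those of Klf1 and Klf17 had no H3K4me3. Each is the RefSeq window (table build GRCm38.p6) from 250 bases before to 50 bases after a start, 5′ to 3′ on the gene's strand, with every CpG in capitals. It was placed on mm9 by its single exact match, at chr1:135320740-135321039 (minus strand, Sox13), chr19:23215466-23215765 (plus, Klf9), chr6:90412320-90412619 (plus, Klf15), chr8:87425631-87425930 (plus, Klf1) and chr4:117438222-117438521 (minus, Klf17).
Sox13: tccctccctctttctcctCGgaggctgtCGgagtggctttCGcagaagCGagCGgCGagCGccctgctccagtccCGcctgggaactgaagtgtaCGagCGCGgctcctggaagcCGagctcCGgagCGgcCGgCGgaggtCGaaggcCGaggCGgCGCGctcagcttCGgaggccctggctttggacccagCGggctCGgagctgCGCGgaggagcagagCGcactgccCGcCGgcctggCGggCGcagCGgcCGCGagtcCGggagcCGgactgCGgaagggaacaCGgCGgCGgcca
Klf9: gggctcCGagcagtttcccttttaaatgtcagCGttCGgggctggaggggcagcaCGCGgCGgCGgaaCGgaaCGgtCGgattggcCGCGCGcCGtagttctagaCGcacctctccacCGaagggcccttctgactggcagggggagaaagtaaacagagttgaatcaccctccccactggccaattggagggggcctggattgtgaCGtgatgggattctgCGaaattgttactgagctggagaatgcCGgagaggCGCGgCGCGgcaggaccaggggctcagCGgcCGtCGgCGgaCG
Klf15: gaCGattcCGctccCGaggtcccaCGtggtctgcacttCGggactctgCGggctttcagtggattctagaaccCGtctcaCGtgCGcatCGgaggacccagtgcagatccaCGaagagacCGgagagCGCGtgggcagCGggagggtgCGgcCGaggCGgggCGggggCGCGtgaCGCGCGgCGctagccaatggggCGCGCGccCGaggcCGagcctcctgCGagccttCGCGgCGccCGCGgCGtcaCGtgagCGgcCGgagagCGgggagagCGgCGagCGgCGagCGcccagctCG
Klf1: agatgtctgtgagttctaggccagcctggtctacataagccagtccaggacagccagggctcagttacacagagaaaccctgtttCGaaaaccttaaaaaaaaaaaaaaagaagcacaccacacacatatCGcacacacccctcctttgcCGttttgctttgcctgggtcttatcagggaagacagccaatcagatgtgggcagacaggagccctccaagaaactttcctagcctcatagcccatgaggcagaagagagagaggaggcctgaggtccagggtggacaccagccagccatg
Klf17: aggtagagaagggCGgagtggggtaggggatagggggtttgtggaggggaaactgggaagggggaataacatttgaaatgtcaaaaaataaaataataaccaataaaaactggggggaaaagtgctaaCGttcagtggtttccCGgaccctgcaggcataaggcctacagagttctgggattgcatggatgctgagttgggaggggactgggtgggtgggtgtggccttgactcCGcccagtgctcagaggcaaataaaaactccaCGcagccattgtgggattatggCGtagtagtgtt

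These windows held 40 CpG in Sox13, 28 in Klf9, 47 in Klf15, 3 in Klf1 and 6 in Klf17. Over 18191 RefSeq promoters of protein-coding genes the median was 14. H3K4me3 overlapped the Sox13 and Klf9 windows by at least 1 base in 7 of 7 libraries. It overlapped the Klf15 window in 6 of 7, whereas the Klf1 and Klf17 windows had none. In D16S+ the Klf9 peak began 0.027 kb after the start, so it met only the end of the window. The Klf1 H3K4me3 peak began just past its window, 0.37 kb downstream of the start in D0. H3.3 overlapped the Klf15 window in iPSCs, D12S- and D4, the Klf17 window in D9T- and D12S-, and the Sox13 window in D4 alone. It overlapped the Klf9 window in 8 of 16 libraries, not in D0, D3, D12S+ or D16S+.

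Of the 31 members, 22 had a RefSeq promoter that matched mm9. Sox3, Sox7, Sox9, Sox10, Sox17, Sox18, Klf10, Klf14 and Klf16 had no entry. The median CpG count of the 22 windows was 21.5, and 13 of 22 held more than 19 CpG, against 37.5% of all promoters. Searched on both strands, ACAAT was found in 8 of 22 (36.4%, against 26.8% of all promoters), CACCC in 14 (63.6%, against 60.1%) and GGGCGG, the GC box, in 13 (59.1%, against 47.9%). The Sox5 window lay 834871 bases inside the annotated gene and belongs to an inner start.

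Depth, in M (megatags), was 18.75 to 41.16 M in the reprogramming H3.3 libraries, 46.7 to 91.75 M in transdifferentiation, 15.81 to 35.39 M for H3K4me3 and 13.19 to 25.37 M for H3K36me3. Tag counts are given per 10 M tags, summed over the parts of the peaks inside the extended gene. The smallest called peak held between 3.54 and 6.06 tags, so a missing peak means only that the calling limits were not passed. As the cells were profiled in bulk, fewer cells with a mark and less of it per cell cannot be told apart. The share of tags in peaks differed between libraries, and D16S+ (4.88% for H3.3, 3.71% for H3K4me3), D12S+ for H3K36me3 (1.07%) and cKit+ (1.65%) had the sparsest lists of their kind. The cell labels were checked by H3.3 peaks on marker genes: all 8 fibroblast markers had H3.3 in D0 and MEF and none in ESD3, and all 7 pluripotency markers analysed had it in iPSCs and ESD3. In D0, 3 of 7 pluripotency markers had H3.3 (57.9 tags), and in iPSCs 2 of 8 fibroblast markers did (37.1 tags). In cKit+ cells only 2 of 7 hematopoietic markers had H3.3 (Gata2 and Cd34, not Kit), with a summed 13.6 tags, while 5 of 8 fibroblast markers had 205.7 tags. In cKit- cells 4 of 7 hematopoietic markers had H3.3, with 75.6 tags.

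H3K4me3 was present on nearly all members, whereas H3.3 and H3K36me3 in D0 were near the shares of all genes. In D0, 30 of 31 members (96.8%) had H3K4me3, against 70.3% of all protein-coding genes. H3.3 was present on 20 (64.5%, against 61.9%) and H3K36me3 on 14 (45.2%, against 49.7%). In iPSCs the same counts were 30 for H3K4me3 (69.1% of all genes), 20 for H3.3 (61.3%) and 9 for H3K36me3 (29.0%, against 34.9%). Members were short, so genes under 20 kb give a closer background: 20 of 21 such members had H3K4me3 in D0, against 56.4% of short genes, 12 of 21 had H3.3, against 48.4%, and 8 of 21 had H3K36me3, against 37%. Gene length moved the background but left H3K4me3 as the mark most frequent on the members.

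**Figure D1:**
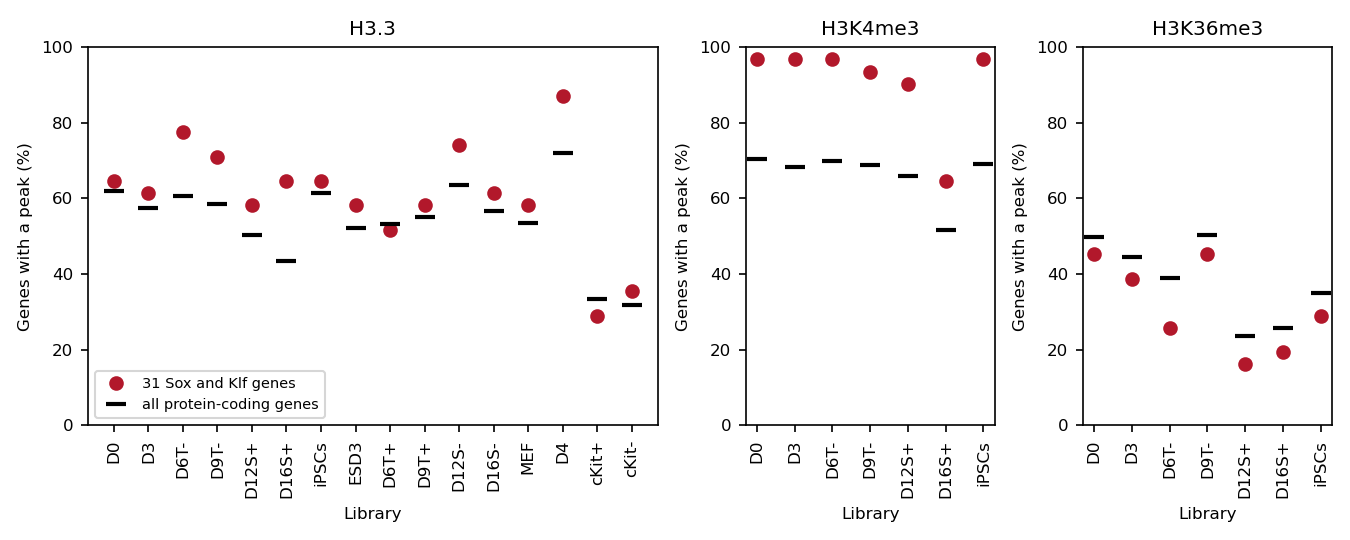
Share of genes with at least 1 peak (y axis, %) in each library (x axis) for H3.3, H3K4me3 and H3K36me3; red points are the 31 Sox and Klf genes and black bars all 22238 protein-coding genes. The H3K4me3 points lie above the bars in all 7 libraries, from 64.5% in D16S+ to 96.8%, the H3K36me3 points lie below them, and the H3.3 points lie on either side.

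Along the successful route H3.3 was found on 20 members in D0, 19 in D3, 24 in D6T- and 22 in D9T-, 18 in D12S+ and 20 in D16S+, then 20 in iPSCs. The share stood furthest from that of all genes in D16S+, at 64.5% against 43.5%, and in D6T-, at 77.4% against 60.7%. It was 61.3% against 57.4% in D3, 71.0% against 58.4% in D9T- and 58.1% against 50.3% in D12S+. In the unsuccessful fractions 16 members had H3.3 in D6T+ (51.6%, against 53.2% of all genes) and 18 in D9T+ (58.1%, against 55.0%). On the later days 23 had it in D12S- (74.2%, against 63.5%) and 19 in D16S- (61.3%, against 56.7%). The member counts followed the length of the peak lists in part: with the 34062 top-scoring peaks of each library they were 14 in D0, 19 in D6T- and in D9T-, 20 in D16S+ and 15 in iPSCs. With these peaks, the share of all genes was 46.3% in D0, 48.1% in D6T- and in D9T-, 43.5% in D16S+ and 45.7% in iPSCs.

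The 3 marks together divided the members. In D0, 13 members carried all of them (41.9%, against 44.4% of all genes): Sox4, Sox5, Sox9, Sox15, Klf3, Klf6, Klf7, Klf9, Klf10, Klf11, Klf12, Klf13 and Klf16. For Sox15 the D0 H3K36me3 was the edge of a peak that began past the end of the gene. H3K4me3 with H3.3 but without H3K36me3 was found on 7 members, Sox6, Sox8, Sox10, Sox11, Sox12, Sox21 and Sox30 (22.6%, against 13.8%). H3K4me3 alone was found on 9 members, Sox3, Sox7, Sox13, Sox14, Sox17, Sox18, Klf1, Klf8 and Klf15, which is 29.0% of the members against 8.95% of all genes. Klf14 had H3K4me3 and H3K36me3, and Klf17 had no mark.

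In iPSCs, 8 members carried all 3 marks (25.8%, against 32.4%), 12 had H3K4me3 with H3.3 alone (38.7%, against 24.7%) and 9 had H3K4me3 alone (29.0%, against 10.5%). The last group kept 5 members from D0, namely Sox3, Sox14, Sox17, Sox18 and Klf8. Sox13, Klf1 and Klf15 had left it with H3.3 peaks, and Sox8, Sox9, Sox10 and Klf14 had entered it. Sox7 had H3K4me3 with a single H3K36me3 peak of 6.59 tags.

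**Figure D2:**
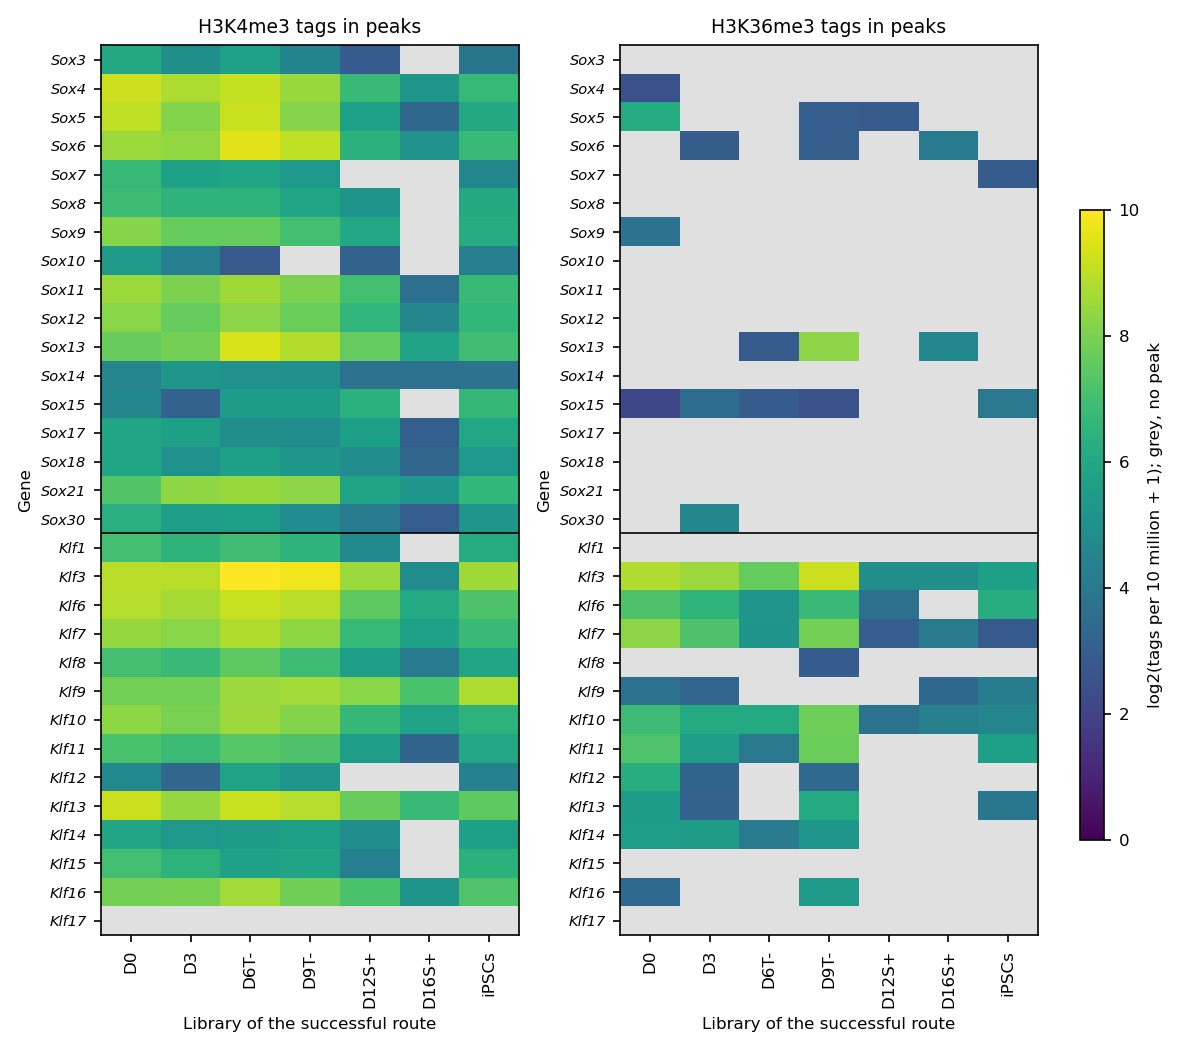
H3K4me3 (left) and H3K36me3 (right) tags in peaks, as log2(tags per 10 M + 1), for each of the 31 genes (rows, Sox above the line) in the 7 libraries of the successful route (columns), with grey where no peak was called. H3K4me3 fills all rows but Klf17 in D0 and iPSCs, while H3K36me3 in D0 is found on 10 of 14 Klf genes and 4 of 17 Sox genes.

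H3K4me3 showed little timing. All 30 marked members had their first peak in D0, 20 of 31 had a peak in all 7 libraries (64.5%, against 49.3% of all genes), and the other 10 lacked it only in libraries between D9T- and D16S+ and had it in iPSCs. The peak lay within 1 kb of the annotated start in 29 of 31 members in D0, against 64.1% of all genes. The exceptions were Klf17, with none, and Klf12, a CtBP-binding repressor, whose D0 peak lay 122.50 to 123.41 kb inside the gene. Most H3K4me3 sums were lower in iPSCs than in D0, with a median log2 ratio of -1.12 over 30 members against -1.34 over the 14706 genes with peaks in both. Sums were higher in iPSCs on 3 members (10.0%, against 5.42%), namely Sox15, Klf9 and Sox17.

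Sox15, a lone group G factor known from embryonic stem cells and muscle, had the largest increase of this kind. Its H3K4me3 tags were 22.9 in D0, 7.92 in D3, 44.7 in D6T- and 45.3 in D9T-, 83.1 in D12S+ and 100.1 in iPSCs, with no peak in D16S+. The ratio of iPSCs to D0 was 4.37, and 0.449% of all genes had a ratio as high or higher. The 95% Poisson intervals, which cover counting error only, did not overlap, at 17.7 to 29.1 tags in D0 and 90.0 to 111.1 in iPSCs. Sox15 shares its window with Mpdu1, and no Sox15 peak of any mark was free of it; its H3.3 peak in D0 ran from -8.74 to 6.93 kb relative to the start, so that 21.8% of its bases lay in the window.

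H3K36me3 was found in D0 on 10 of 14 Klf genes (71.4%) and 4 of 17 Sox genes (23.5%), against 49.7% of all genes. In iPSCs it was found on 7 Klf genes (50.0%) and 2 Sox genes (11.8%), against 34.9%, and the difference between the families was not tested. All 6 Sin3-binding Klf genes (Klf9, Klf10, Klf11, Klf13, Klf14 and Klf16) had it in D0 and 4 of them in iPSCs. Klf3, the repressor that recruits CtBP, had 444.0 tags in D0, 361.4 in D3, 199.1 in D6T- and 582.4 in D9T-, 29.5 in D12S+ and 29.9 in D16S+, then 50.6 in iPSCs. Klf3, Klf7 and Klf10 had H3K36me3 in all 7 libraries, and 12 members had it in none (38.7%, against 41.8% of all genes).

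From D0 to iPSCs, H3K36me3 was no longer called on 6 members (19.4%, against 17.9% of all genes). Sox4 had 4.66 tags in D0 and no peak elsewhere, and Sox9 had 13.2 tags in D0 and none elsewhere. Sox5 had 70.5 tags in D0, 6.93 in D9T- and 6.40 in D12S+. Klf12 had 75.1 tags in D0, 8.35 in D3 and 9.61 in D9T-, and Klf16, a Sin3-binding repressor, had 9.77 in D0 and 41.3 in D9T-. The 5 genes named so far thus had H3K36me3 in D0 and at most 2 later libraries.

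Klf14, a maternally expressed imprinted gene without introns, differed from them. Its H3K36me3 tags were 47.2 in D0, 44.4 in D3, 16.2 in D6T- and 36.9 in D9T-, with no peak from D12S+ on. It was the only member with H3K36me3 within 1 kb of its start, which 3.11% of all genes had in D0. Its D0 peak reached from -1.98 to 1.72 kb relative to the start, over an H3K4me3 peak from -0.90 to 1.25 kb. No H3.3 peak was called on Klf14 in any of 16 libraries.

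Where both libraries had the mark, H3K36me3 sums were lower in iPSCs on 6 of 8 members and higher on Sox15 and Klf9 (25.0%, against 4.27% of all genes). Sox7, a SoxF factor of endothelial cells, had its first H3K36me3 peak in iPSCs (6.59 tags). Sox13 had 6.11 tags in D6T-, 302.0 in D9T- and 24.3 in D16S+, and no peak in D0, D3, D12S+ or iPSCs. H3K36me3 lists differed widely in their share of tags in peaks, with 31.3% in D0, 42.4% in D9T- and 2.88% in iPSCs, and the part of this in the differences above was not tested.

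H3.3 was found in all 16 libraries on 5 members, Sox12, Sox15, Klf3, Klf9 and Klf13 (16.1%, against 14.5% of all genes), and in none on Sox3 and Klf14 (6.45%, against 20.0%). Along the successful route 13 members had it in every library, 14 switched at least once and 4 never had it. The matching shares of all genes are not given here, so these counts do not set the members apart from other genes. From D0 to iPSCs, H3.3 was new on 3 members, Sox13, Klf1 and Klf15 (9.68%, against 8.84%), and was no longer called on 3, Sox8, Sox9 and Sox10 (9.68%, against 9.49%). On the 17 members with H3.3 in both, the median log2 ratio of iPSCs to D0 was -0.07, against -0.47 over 11656 genes, and 7 of 17 had higher sums in iPSCs (41.2%, against 36.5%).

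**Figure D3:**
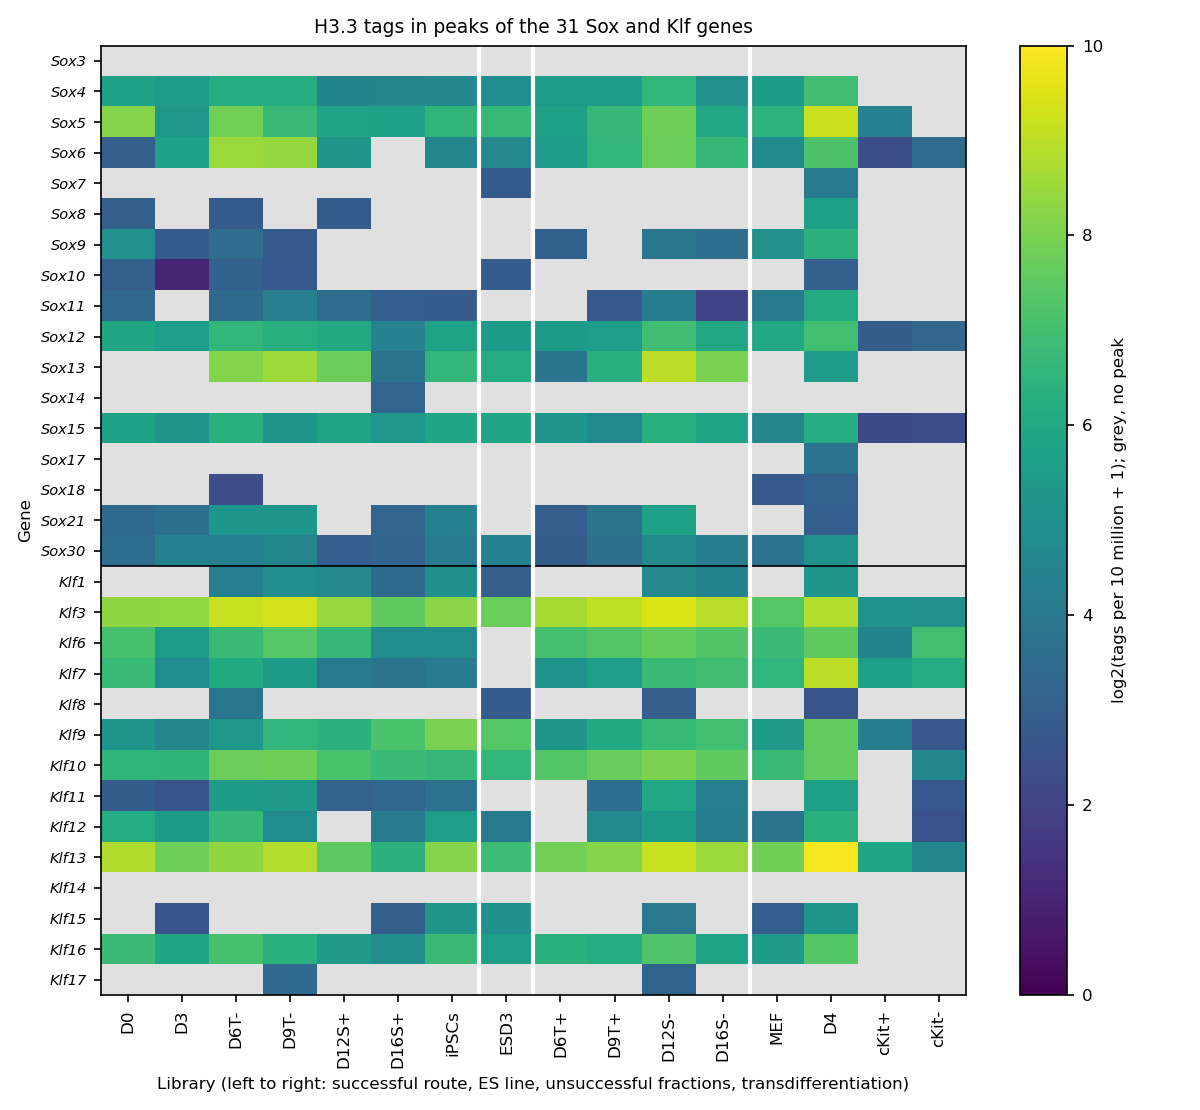
H3.3 tags in peaks, as log2(tags per 10 M + 1), for each of the 31 genes (rows, Sox above the line) in 16 libraries (columns, white lines part the successful route, ESD3, the unsuccessful fractions and transdifferentiation), with grey where no peak was called. Klf3 and Klf13 have the highest sums in most columns, Sox3 and Klf14 have no peak, and Sox13 has none in D0, D3 and MEF.

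H3.3 was first called after D0 on Klf15 in D3, on Sox13, Sox18, Klf1 and Klf8 in D6T-, on Klf17 in D9T- and on Sox14 in D16S+. From D0 to D3 it was new on 1 member (3.23%, against 3.91% of all genes) and no longer called on Sox8 and Sox11 (6.45%, against 8.41%). From D3 to D6T- it was new on 6 members, Sox8, Sox11, Sox13, Sox18, Klf1 and Klf8 (19.4%, against 7.78%), and no longer called on Klf15 (3.23%, against 4.51%). With equal numbers of top-scoring peaks, those new in D6T- were Sox13, Sox18 and Klf1. In these lists 44.5% of all genes had H3.3 in D3 and 48.1% in D6T-, and the share of all genes new in D6T- was not computed. From D6T- on, Sox11, Sox13 and Klf1 kept it to iPSCs.

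Of the SoxB genes, Sox3, an X-linked neural progenitor factor, had no H3.3 anywhere, and Sox14, a factor of interneurons, had 8.54 tags in D16S+ only. Sox21 had 9.64 tags in D0, 11.8 in D3, 37.0 in D6T- and 37.2 in D9T-, 8.54 in D16S+, 19.8 in iPSCs, 7.22 in D6T+ and 13.5 in D9T+, 52.3 in D12S- and 6.98 in D4, with no peak in the other 6 libraries. H3K4me3 stood on all 3 genes in D0 and iPSCs.

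The SoxC genes, which share roles in neural and mesenchymal progenitors, all had H3.3 in D0 and iPSCs. Sox4 had 52.1 tags in D0, 43.9 in D3, 72.5 in D6T- and 72.9 in D9T-, 21.6 in D12S+ and 22.6 in D16S+, then 24.3 in iPSCs and 29.1 in ESD3. In the unsuccessful fractions Sox4 had 43.6, 45.1, 94.1 and 32.6 tags on days 6, 9, 12 and 16, and in transdifferentiation 42.3 in MEF and 121.2 in D4 with no peak in cKit+ or cKit-. Sox12 kept H3.3 in all libraries, from 6.65 tags in cKit+ to 123.0 in D4. Sox11 had 9.09 tags in D0, none in D3, 9.94 in D6T- and 18.2 in D9T-, 10.7 in D12S+ and 6.93 in D16S+, then 6.60 in iPSCs. In the other libraries Sox11 had 6.01 tags in D9T+, 17.4 in D12S-, 3.01 in D16S-, 16.8 in MEF and 68.6 in D4, and none in ESD3, D6T+ or the sorted cKit cells. The whole iPSC peak of Sox11, which began outside the extended gene, held 13.8 tags.

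The SoxD genes had the highest Sox sums and the widest range. The sums were not divided by length, and Sox5 (953.6 kb), Sox6 (567.4 kb) and Sox13 (42.1 kb) were the longest Sox genes. Sox5 had 19 peaks in D0, the strongest with 27.1 tags, while the strongest peak held 33 tags on Sox4 and 46.7 on Sox12. Sox13 had no H3.3 in D0, D3 or MEF. It had 278.9 tags in D6T- (95% Poisson interval 260.2 to 298.6), 371.6 in D9T-, 214.8 in D12S+, 13.3 in D16S+, 97.0 in iPSCs (87.7 to 107.0) and 70.4 in ESD3. In the unsuccessful fractions it had 13.7 tags in D6T+ (9.23 to 19.7), 79.0 in D9T+, 514.0 in D12S- and 254.0 in D16S-. In transdifferentiation it had 44.4 tags in D4 alone. H3.3 was thus absent from the lists up to day 3, higher in the Thy-1 negative than the Thy-1 positive fraction on days 6 and 9, and higher in the SSEA-1 negative than the SSEA-1 positive fraction on days 12 and 16.

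For Sox13, D6T- exceeded D6T+ by 20.3 times, and 0.538% of the 11148 genes with H3.3 in both had a ratio as high or higher. On day 9 the ratio was 4.70 (2.89% of genes as high or higher). On day 12 D12S- exceeded D12S+ by 2.39 times, a log2 ratio of -1.26 that 38.1% of genes matched or passed, and on day 16 D16S- exceeded D16S+ by 19.1 times (2.01% of 8711 genes with a D16S+ to D16S- ratio as low or lower). Over all genes the median log2 ratio of the successful to the unsuccessful fraction was 0.79 on day 6, 0.27 on day 9, -1.56 on day 12 and -1.33 on day 16. H3.3 covered 45.9% of the extended gene in D6T-, in 7 peaks, 58.5% in D9T- and 76.7% in D12S-. H3K4me3 tags over all Sox13 peaks were 205.8 in D0, 237.5 in D3, 679.9 in D6T- and 464.8 in D9T-, 192.4 in D12S+ and 53.7 in D16S+, then 121.5 in iPSCs. The peak at the start alone held 176.5 tags in D0, 445.9 in D6T- and 77.6 in iPSCs, and it reached 2.24 kb into the gene in D0 and 7.31 kb in D6T-. The ratio of D6T- to D0 over all peaks was 3.3, and 0.820% of 15127 genes had one as high or higher. Etnk2 begins past the end of Sox13, and the Sox13 calls were the same in every library when peaks shared with Etnk2 were left out.

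Sox6, which acts with Sox5 in cartilage and with others in red cells, had 7.05 H3.3 tags in D0 (95% Poisson interval 4.24 to 11.0), 51.1 in D3, 364.4 in D6T- (343.0 to 386.8), 337.1 in D9T-, 38.4 in D12S+ and none in D16S+, then 23.1 in iPSCs and 25.2 in ESD3. The opposite fractions had 43.3 in D6T+ and 98.3 in D9T+, 212.6 in D12S- and 99.3 in D16S-, and the transdifferentiation libraries 25.5 in MEF, 145.6 in D4, 4.30 in cKit+ and 10.5 in cKit-. D6T- exceeded D0 by 51.7 times, a ratio that 0.107% of 12116 genes reached. The D0 value is a single small peak, and the MEF library, also of fibroblasts, exceeded it by 3.62 times. Sox6 H3.3 never lay within 1 kb of the annotated start, and the strongest D6T- peak lay 303.10 to 306.49 kb inside the gene.

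Sox5 had 291.7 tags in D0, the third highest of the members there. It had 38.8 in D3, 231.5 in D6T- and 107.3 in D9T-, 53.6 in D12S+ and 51.8 in D16S+, then 92.5 in iPSCs and 102.2 in ESD3. The unsuccessful fractions had 51.7 in D6T+ and 100.7 in D9T+, 222.9 in D12S- and 61.7 in D16S-, and the transdifferentiation libraries 88.5 in MEF, 587.5 in D4, 20.8 in cKit+ and none in cKit-. Its strongest peak lay at about the same place inside the gene in D3 (451.96 to 452.86 kb from the start), all sorted reprogramming fractions but D6T+, iPSCs and ESD3 (451.34 to 453.57 kb). It lay elsewhere in D0 (87.38 to 89.59 kb), D6T+, MEF, D4 and cKit+. Sox5 H3K4me3 had the lowest ratio of iPSCs to D0 of all members, with 65.3 against 528.3 tags.

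**Figure D4:**
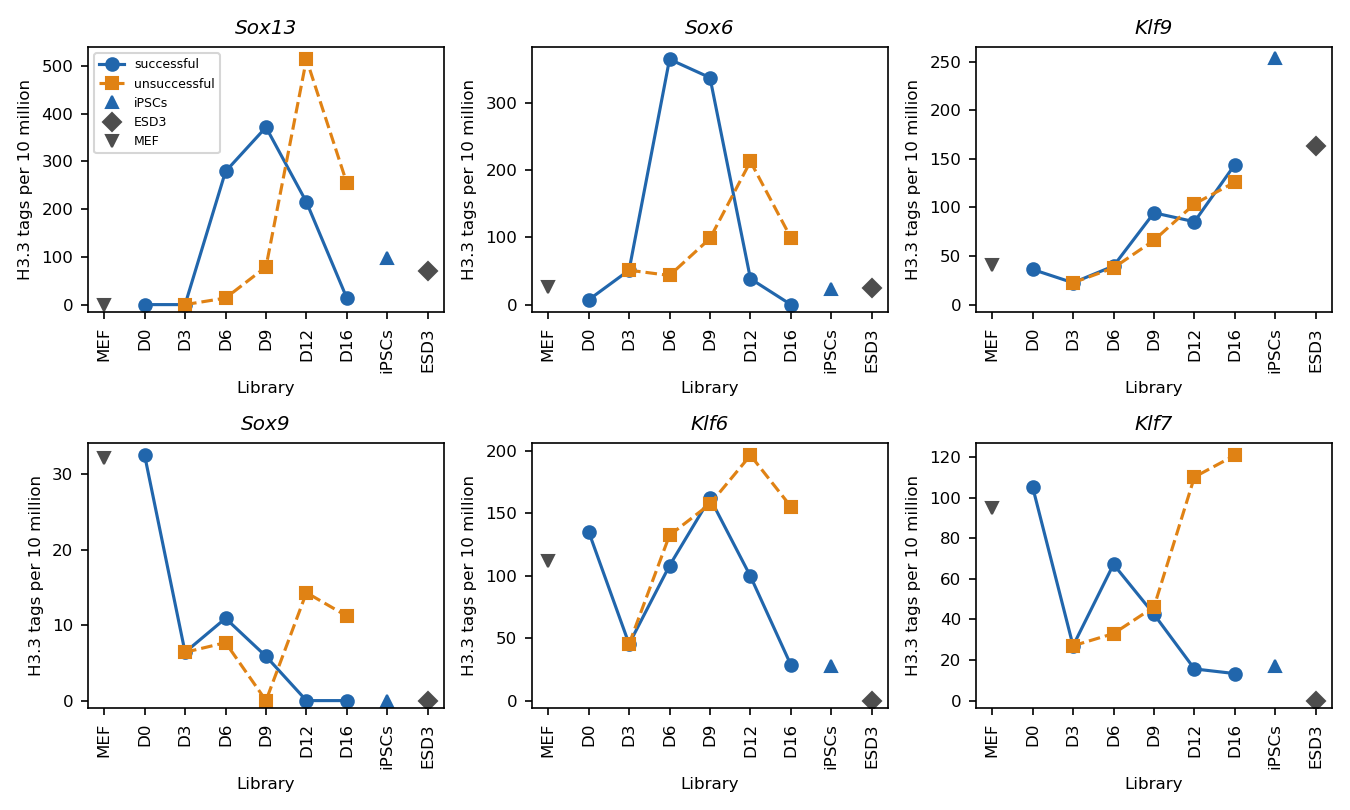
H3.3 tags per 10 M (y axis) of Sox13, Sox6, Klf9, Sox9, Klf6 and Klf7 by library (x axis); blue circles follow D0, D3 and the successful fractions, orange squares D3 and the unsuccessful fractions, and triangles and diamonds are iPSCs, MEF and ESD3, with 0 where no peak was called and the unsorted D3 value shared by both lines. Sox13 and Sox6 are highest in the successful fraction on days 6 and 9 and in the unsuccessful one on days 12 and 16, Klf9 is highest in iPSCs (253.6), and Klf7 on days 12 and 16 is higher in the unsuccessful fraction.

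The SoxE genes, factors of neural crest, glia and cartilage, were the subgroup that had H3.3 on all 3 members in D0 and on none in iPSCs. Sox9 had 32.5 tags in D0 (95% Poisson interval 26.0 to 40.1) and 32.2 in MEF (27.2 to 37.8), 6.40 in D3, 10.9 in D6T- and 5.87 in D9T-. No H3.3 was called on Sox9 in D12S+, D16S+, iPSCs, ESD3, D9T+, cKit+ or cKit-. D6T+ had 7.68 tags, D12S- 14.3, D16S- 11.2 and D4 86.0. Sox9 was the only member with H3.3 in both fibroblast libraries and in neither iPSCs nor ESD3, and its peaks lay near the start, the strongest in D0 from -0.01 to 1.38 kb. Its H3K4me3 was 288.1 tags in D0, 198.3 in D3, 198.8 in D6T- and 125.1 in D9T-, 61.3 in D12S+ and 71.2 in iPSCs, with none in D16S+.

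Sox8 and Sox10 had small sums in reprogramming. Sox8 had 7.05 tags in D0, 6.07 in D6T- and 6.44 in D12S+, and Sox10 had 7.42 in D0, 1.07 in D3, 7.52 in D6T-, 5.71 in D9T- and 6.48 in ESD3. The Sox10 sums in D3 and D6T- were the inner edges of peaks that reached past the extended gene, and the whole peak held 10.1 tags in D3 and 31.4 in D6T-. Neither gene had a peak in MEF, and D4 had 48.8 tags on Sox8 and 7.32 on Sox10. With the top-scoring peaks alone neither was called in D0 or iPSCs, so of the SoxE losses Sox9 was the one kept there.

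The SoxF genes, factors of endothelium and endoderm, had little H3.3. Sox17 had 12.9 tags in D4 only, and Sox7 had 6.15 in ESD3 and 16.8 in D4. Sox18 had 4.13 tags in D6T-, 5.89 in MEF and 7.80 in D4. The Sox7 sums and the Sox18 sums in D6T- and D4 were parts of peaks that reached past the extended gene. The whole peak held 16.3 tags in D6T- and 21 in D4 on Sox18, and 9.02 in ESD3 and 43.9 in D4 on Sox7. H3K4me3 was present on all 3 SoxF genes in D0 and iPSCs, with 59.6 and 62.4 tags on Sox17. Sox30, a group H factor of sperm formation, had 11.4 tags in D0, 19.9 in D3, 20.3 in D6T- and 22.4 in D9T-, 6.89 in D12S+ and 8.0 in D16S+, then 16.6 in iPSCs and 19.9 in ESD3. In the unsuccessful fractions Sox30 had 6.78, 11.8, 25.6 and 17.2 tags on days 6, 9, 12 and 16, so every reprogramming library had a peak. In transdifferentiation Sox30 had 13.2 tags in MEF, 33.9 in D4 and no peak in the sorted cells.

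Among the Klf repressors that bind CtBP, Klf3 had 321.2 H3.3 tags in D0, 328.4 in D3, 572.4 in D6T- and 642.7 in D9T-, 350.5 in D12S+ and 187.8 in D16S+, then 306.5 in iPSCs and 213.2 in ESD3. It had 398.9 in D6T+ and 533.3 in D9T+, 686.0 in D12S- and 485.0 in D16S-, and 164.3 in MEF, 464.1 in D4, 33.3 in cKit+ and 31.9 in cKit-. It was the highest member in iPSCs and in ESD3. Klf12 had 71.0 tags in D0, 43.1 in D3, 99.2 in D6T- and 27.7 in D9T-, none in D12S+ and 16.0 in D16S+, then 45.8 in iPSCs and 16.2 in ESD3. In the other libraries Klf12 had none in D6T+ and cKit+, 25.6 in D9T+, 42.8 in D12S-, 17.3 in D16S-, 13.3 in MEF, 79.7 in D4 and 4.65 in cKit-. Klf8, an X-linked repressor, had small peaks in D6T- (14.0), ESD3 (6.24), D12S- (7.14) and D4 (5.10).

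Of the activator group, Klf1, the red cell factor, had no H3.3 in D0, D3, MEF, D6T+ or D9T+. It had 19 tags in D6T- and 29.0 in D9T-, 24.9 in D12S+, 9.87 in D16S+, 31.3 in iPSCs (95% Poisson interval 26.1 to 37.2) and 7.17 in ESD3. It had 24.9 in D12S-, 21.0 in D16S- and 36.6 in D4, and neither cKit+ nor cKit- had a peak. The peaks lay in the gene body, from 1.73 to 3.11 kb after the start in D6T-. Sox13 and Klf1 were the members with H3.3 in iPSCs and ESD3 but in neither D0 nor MEF, and both first carried it in D6T-. The ESD3 call of Klf1 was a single peak of 7.17 tags over 0.501 kb. With equal numbers of top-scoring peaks Klf1 was not called in ESD3, while Sox13 kept this pattern. H3K4me3 on Klf1 was present in D0, with 127.7 tags, and in every later route library but D16S+, and H3K36me3 was not called in any library.

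Klf6 and Klf7 had H3.3 in D0, MEF and iPSCs but not in ESD3, and along the route Klf6 was highest in D9T- and Klf7 in D0. Klf6, an immediate early gene, had 135.3 tags in D0, 45.3 in D3, 108.0 in D6T- and 162.0 in D9T-, 99.5 in D12S+ and 28.5 in D16S+, then 27.7 in iPSCs, with none in ESD3. Klf7, a factor of neurons and fat cells, had 105.2 in D0, 27.0 in D3, 67.1 in D6T- and 42.5 in D9T-, 15.6 in D12S+ and 13.3 in D16S+, then 16.8 in iPSCs, with none in ESD3. Both were lower in iPSCs than in D0, by 4.88 times for Klf6 (13.6% of genes with an iPSC to D0 ratio as low or lower) and 6.27 times for Klf7 (9.96%). The unsuccessful fractions had, from day 6 to day 16, 132.3, 157.3, 196.3 and 155.2 tags on Klf6 and 33, 46.1, 110.1 and 120.8 on Klf7. The MEF library, with 112.1 and 94.7 tags, was near D0. All 8 fibroblast markers summed to 5221.1 tags in D0, 12.8 in D16S+ and 830.4 in D16S-, and the part of the makeup of the fractions in these values was not tested.

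Among the Sin3-binding Klf genes, Klf9 was the member with the largest H3.3 increase of those with peaks in both D0 and iPSCs. It had 36.2 tags in D0 (95% Poisson interval 29.4 to 44.1), 22.5 in D3, 39.7 in D6T- and 94.5 in D9T-, 85.3 in D12S+, 144.2 in D16S+, 253.6 in iPSCs (238.4 to 269.4) and 163.0 in ESD3. The unsuccessful fractions had 37.8 in D6T+ and 66.2 in D9T+, 103.6 in D12S- and 126.1 in D16S-, and transdifferentiation gave 41.0 in MEF, 190.1 in D4, 17.6 in cKit+ and 5.62 in cKit-. iPSCs exceeded D0 by 7.01 times, and 2.63% of 11656 genes had a ratio as high or higher. Between the fractions Klf9 was higher in the successful one by 1.05, 1.43 and 1.14 times on days 6, 9 and 16 and lower by 1.21 times on day 12. A ratio of the successful to the unsuccessful fraction as high or higher was found in 80% of genes on day 6 and 37.1% on day 9. On day 12 it was found in 9.21% and on day 16 in 11.8%, so Klf9 stood low among all genes on day 6 and high on days 12 and 16.

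H3K4me3 tags over all Klf9 peaks were 235.0 in D0, 231.4 in D3, 362.4 in D6T- and 387.2 in D9T-, 296.9 in D12S+ and 140.7 in D16S+, then 438.8 in iPSCs. D0 had 1 peak and iPSCs had 4. The peak at the start held 255.9 tags over its whole width of 3.90 kb in D0 and 317.8 over 8.48 kb in iPSCs, and over all peaks 1.80% of 14706 genes had a ratio of iPSCs to D0 as high or higher. H3.3 covered 10.8% of the extended gene in D0 and 74.7% in iPSCs. H3K36me3 was small throughout, with 12.8 tags in D0, 8.56 in D3, 9.47 in D16S+ and 17.7 in iPSCs.

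**Figure D5:**
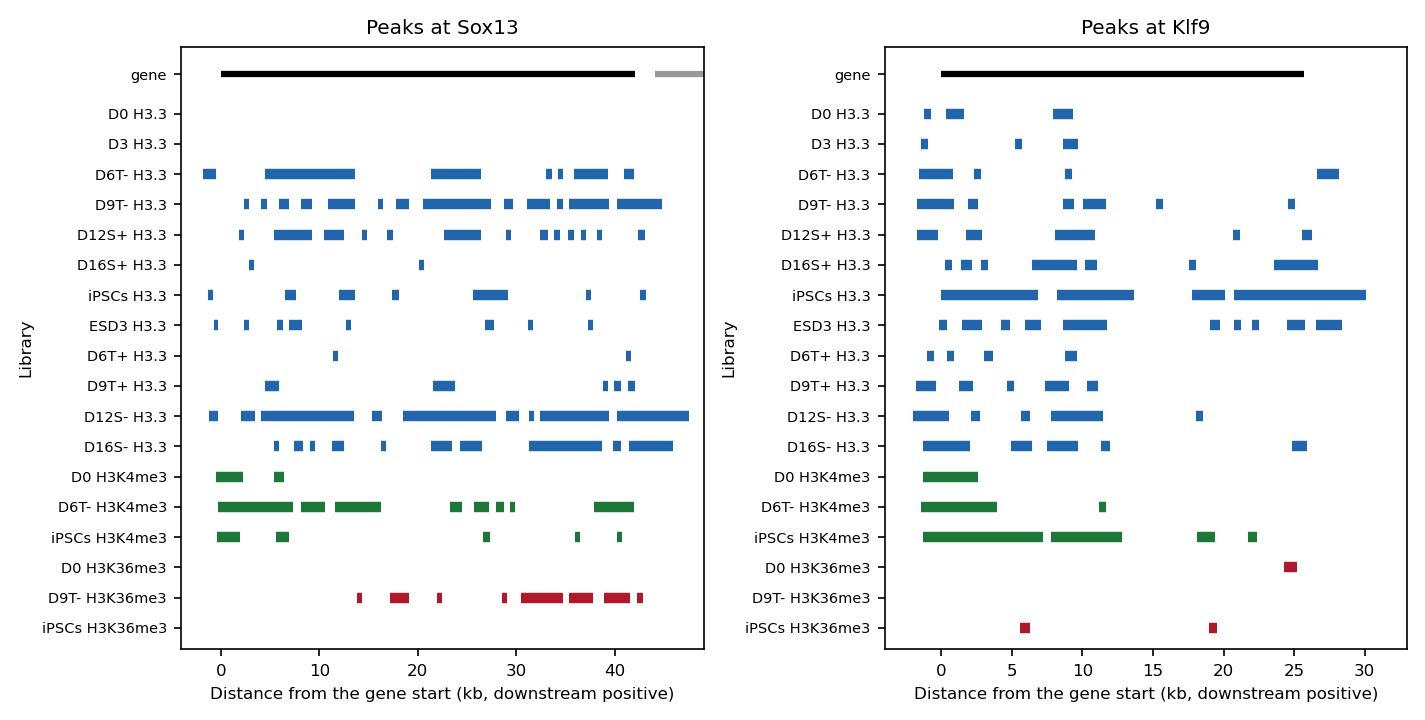
Peaks along Sox13 (left) and Klf9 (right) by distance from the gene start in kb (x axis) for the libraries named on the y axis; blue bars are H3.3 peaks, green H3K4me3 and red H3K36me3, the black line is the gene and the grey line the neighbour Etnk2. On Sox13 H3.3 is absent in D0 and D3 and covers 58.5% of the extended gene in D9T- and 76.7% in D12S-, and on Klf9 it spreads from 3 peaks in D0 to 4 broad peaks in iPSCs.

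Klf13 had 449.0 H3.3 tags in D0, the highest value there, 222.7 in D3, 321.8 in D6T- and 458.7 in D9T-, 180.9 in D12S+ and 85.8 in D16S+, then 286.7 in iPSCs and 117.3 in ESD3. The other libraries had 239.9 in D6T+ and 288.2 in D9T+, 577.4 in D12S-, 355.9 in D16S-, 229.8 in MEF, 953.7 in D4, 57.4 in cKit+ and 24.0 in cKit-. Klf10, induced by transforming growth factor beta, had 92.8 in D0, 90.0 in D3, 206.8 in D6T- and 219.0 in D9T-, 140.1 in D12S+ and 111.7 in D16S+, then 101.0 in iPSCs and 97.8 in ESD3. Its values in D0, iPSCs and ESD3 lay close together, and those of all sorted reprogramming fractions were higher, the highest in D12S-. The remaining libraries gave Klf10 158.7 tags in D6T+ and 206.0 in D9T+, 261.0 in D12S-, 189.5 in D16S-, 104.4 in MEF, 191.6 in D4, none in cKit+ and 24.0 in cKit-.

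Klf16 had 111.8 tags in D0, 58.3 in D3, 133.5 in D6T- and 80.9 in D9T-, 41.2 in D12S+ and 29.6 in D16S+, then 106.5 in iPSCs and 47.8 in ESD3. It had 83.8 in D6T+ and 73.0 in D9T+, 148.8 in D12S-, 53.3 in D16S-, 40.3 in MEF and 161.3 in D4, with none in the sorted cells. Klf11 ranged from 5.10 tags in D3 to 61.6 in D12S- and had no peak in ESD3, D6T+, MEF or cKit+. Of the 2 remaining genes, Klf15, a metabolic regulator, had 5.05 tags in D3, 7.20 in D16S+, 36.7 in iPSCs (95% Poisson interval 31.1 to 43.0), 31.8 in ESD3, 14.6 in D12S-, 6.96 in MEF (4.78 to 9.80) and 37.5 in D4. Klf15 had no peak in the other 9 libraries. Klf17, an early embryo and germ cell gene, had 9.58 tags in D9T- and 8.42 in D12S-, both just before its start.

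To see whether the members parted with the outcome, the fractions sorted on the same day were compared. On day 6, 8 members had H3.3 in D6T- and not D6T+ (25.8%, against 10.5% of all genes), namely Sox8, Sox10, Sox11, Sox18, Klf1, Klf8, Klf11 and Klf12, and none the reverse (0.00%, against 3.02%). On day 9, Sox9, Sox10, Klf1 and Klf17 had it in D9T- alone (12.9%, against 7.34%) and none in D9T+ alone (against 4.02%). On day 12 Sox8 had it in D12S+ alone (3.23%, against 1.92%) and 6 members in D12S- alone (19.4%, against 15.1%), namely Sox9, Sox21, Klf8, Klf12, Klf15 and Klf17. On day 16, Sox14, Sox21 and Klf15 had it in D16S+ alone (9.68%, against 4.29%) and Sox6 and Sox9 in D16S- alone (6.45%, against 17.5%).

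No member had H3.3 in the same kind of fraction alone on 3 or 4 of the 4 days. Over the 4 days there were 16 member-days with H3.3 in the successful fraction only and 8 with it in the unsuccessful fraction only. Among all genes the successful fraction alone was more frequent on days 6 (10.5% against 3.02%) and 9 (7.34% against 4.02%). The unsuccessful fraction alone was more frequent among them on days 12 (15.1% against 1.92%) and 16 (17.5% against 4.29%). The order of 16 and 8 member-days turned when a fold over input of 4 was required (16 and 17), with scores at or above the library median (11 and 13), within the gene body (10 and 11) and at the start (10 and 15). Peak lists were longer in D6T- than D6T+, in D9T- than D9T+, in D12S- than D12S+ and in D16S- than D16S+, so the side with more such members had the longer list on days 6, 9 and 12. With equal numbers of peaks, members in 1 fraction alone were counted with the successful fraction given first. They were 7 and 1 on day 6, 2 and 0 on day 9, 0 and 3 on day 12, and 4 and 2 on day 16. In these lists H3.3 was on 48.1% of all genes in D6T- and 44% in D6T+, 48.1% in D9T- and 45.2% in D9T+. It was on 44.7% in D12S+ and 50.2% in D12S-, and on 43.5% in D16S+ and 46.3% in D16S-. The share of all genes in 1 fraction alone was not computed for these lists.

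Libraries of like cells gave a measure of how far calls vary. The fibroblast libraries D0 and MEF differed in the H3.3 state of 6 members, Sox8, Sox10, Sox18, Sox21, Klf11 and Klf15 (19.4%, against 15.6% of all genes). The pluripotent libraries iPSCs and ESD3 differed in 8, Sox7, Sox10, Sox11, Sox21, Klf6, Klf7, Klf8 and Klf11 (25.8%, against 17.0%). The 6 members that differed between D0 and iPSCs were as many as those that differed between D0 and MEF, but this tie depended on the peaks used. With equal numbers of top-scoring peaks 6 were new and 5 no longer called in iPSCs, against 4 that differed between D0 and MEF. With scores at or above the library median these were 6 and 4, against 2, and in the gene body 5 and 3, against 3. At the start they were 3 and 1, against 5, and with midpoints 3 and 4, against 7. In the full lists 8.84% of all genes were new and 9.49% no longer called in iPSCs. Of the members that differed between D0 and iPSCs, Sox9, Sox13 and Klf1 had the same state in D0 as in MEF and in iPSCs as in ESD3. With equal numbers of top-scoring peaks this held for Sox9 and Sox13, while Klf1 was called in iPSCs and not in ESD3.

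In transdifferentiation, H3.3 was found on 18 members in MEF (58.1%, against 53.4% of all genes) and 27 in D4 (87.1%, against 72.1%). It was found on 9 in cKit+ (29.0%, against 33.3%) and 11 in cKit- (35.5%, against 31.9%). From MEF to D4 it was new on 9 members, Sox7, Sox8, Sox10, Sox13, Sox17, Sox21, Klf1, Klf8 and Klf11 (29.0%, against 19.7% of all genes), and no longer called on none (against 0.872%). D4 had 37.2% of its tags in peaks against 7.64% in MEF, and with 25637 peaks from each library 3 members were new. These were Sox7, Sox8 and Klf15, and Sox13 and Klf1 were not called in D4 there. In these lists 39.8% of all genes had H3.3 in MEF and 51.5% in D4. The share of all genes new in D4 was not computed for them.

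From MEF to cKit+, H3.3 was no longer called on 9 members, Sox4, Sox9, Sox11, Sox18, Sox30, Klf10, Klf12, Klf15 and Klf16 (29.0%, against 24.6%), and new on none (against 4.56%). From MEF to cKit- it was no longer called on 8 (25.8%, against 26.5%) and was new on Klf11 (3.23%, against 5.06%). The 9 members with H3.3 in cKit+ were Sox5, Sox6, Sox12, Sox15, Klf3, Klf6, Klf7, Klf9 and Klf13. Klf6 had 124.2 tags in cKit- (95% Poisson interval 114.8 to 134.2) and 21.9 in cKit+ (18.9 to 25.1), a ratio of 5.68 that 3.47% of 5158 genes reached, while Klf9 had 5.62 and 17.6. The fibroblast markers summed to 245.8 tags in cKit- and 205.7 in cKit+, and the part of remaining fibroblasts or stromal cells in these values was not tested.

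Related genes and partners gave the following counts. The Sp genes, relatives of the Klf family with the same zinc fingers, had H3K4me3 on 9 of 9 in D0 and in iPSCs, H3.3 on 6 and 7, and H3K36me3 on 4 and 3. Of 8 other HMG-box genes, 7 had H3K4me3 and 7 had H3.3 in both libraries and 5 had H3K36me3, with Sry as the gene without H3K4me3 or H3.3. The 9 genes of Klf cofactors, among them Ctbp1, Sin3a, Hdac1 and Ep300, had all 3 marks in both. The 7 Sox partner genes had H3K4me3 on 5 in D0 and 7 in iPSCs, and H3.3 on 3 and 5, with both marks on Pou5f1 and Nanog in iPSCs and neither in D0. The excluded Sox2, Klf2, Klf4 and Klf5 had H3K4me3 and H3.3 in both libraries, and H3K36me3 on 2 in D0 and on Klf5 in iPSCs.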

How the data were processed

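Peak lists of 30 of 46 ChIP-Seq samples were analysed; the 16 inputs entered only through the fold over input in each list. Per the study's methods, reads were aligned to mm9 with STAR and reads with multiple loci or more than 2 mismatches removed; the authors called peaks per library with HOMER findPeaks in histone style against an input, without pooling, at a p-value limit of 0.0001 (tool versions not given in the sources used here). The deposited normalized tag count of a peak is a signal scaled by the authors to 10 M tags (M, megatags), which is neither divided by length nor corrected for input. The deposited fold over input is a ratio, at least 2 in the H3.3 lists and at least 4 in the others.

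Genes were the protein-coding symbols of GENCODE vM1 (1 entry per symbol, the longest), and no peak ran past a chromosome end of the mm9 assembly. A peak was assigned to a gene when at least 1 bp lay within the gene extended by 1 kb, and its tags were counted by the share of its bases inside. Overlap counting was tested on simulated peaks. With 1 library per group, members are described by values and counts beside the share of all genes called. The 95% Poisson intervals rest on the recovered tag number and cover counting error only. The members and all gene lists were chosen with earlier results of these data known.

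Full values are given for members with H3.3 in iPSCs and ESD3 but not D0 and MEF or the reverse, the 3 highest H3.3 sums in D0 and in iPSCs, H3.3 in a single kind of fraction on 3 or 4 days, H3.3 in cKit+ but not MEF or the reverse, H3K4me3 first called after D0 or lost, H3K36me3 gained and kept or lost by iPSCs, and no peak at all. Sox6, Sox15, Sox17, Sox21, Klf6, Klf7, Klf8, Klf11 and other members outside this rule were described after their values were seen. Of 8 pluripotency and 8 hematopoietic markers listed, Tfcp2l1 and Spi1 were not analysed here. Alternatives were equal numbers of top-scoring peaks, a fold of at least 4, a score at or above the library median, the gene body without flanks, the start within 1 kb, the peak midpoint in the window, and peaks not shared with another gene. Python 3.11.15 was used with numpy 2.4.6, pandas 2.3.3, scipy 1.17.1 and matplotlib 3.10.9.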

Additional observations from a re-analysis of the deposited data

How the results depend on the processing

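Of the counts above, 14 were recomputed under up to 7 alternatives, which gave 96 values; the fold limit was not varied where MEF or D4 entered. Of these, 72 stayed within 1.5 times the reported count and 24 moved further; the cause was not tested beyond the fewer peaks or shorter windows that each alternative leaves. With equal numbers of top-scoring peaks, members with H3K36me3 in D0 came to 6, members new for H3.3 from D0 to iPSCs to 6 and no longer called to 5, members with all 3 marks to 4 in D0 and 5 in iPSCs, and members new from MEF to D4 to 3. With the fold limit raised to 4, members with H3.3 in iPSCs came to 13, members no longer called in iPSCs to 6 and member-days in the unsuccessful fraction only to 17, above those in the successful fraction. With scores at or above the library median, members new in iPSCs came to 6, members with all 3 marks to 8 in D0 and 5 in iPSCs, member-days in the unsuccessful fraction only to 13 and members that differed between D0 and MEF to 2. With the gene body alone, members new in iPSCs came to 5, member-days in the successful fraction only to 10 and members that differed between D0 and MEF to 3. With the start alone, members with H3K36me3 came to 1 in D0 and 0 in iPSCs, those with all 3 marks to 0 in both, members no longer called in iPSCs to 1, and member-days to 10 in the successful and 15 in the unsuccessful fraction only. No result moved with peak midpoints or unshared peaks beyond this limit. No paired analysis was possible because each group was a single library.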
